A study of Mus musculus with 12 samples.

Results

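Genes that govern growth arrest and apoptosis were followed in RNA-seq libraries from cultures of mouse hippocampal neurons exposed to the proteasome inhibitor MG132. The 10 genes were chosen with earlier results of these data known. Each was taken by name, by matching the Entrez identifiers of the count files to mouse symbols. They are Cdkn1a, Gadd45a and Gadd45b (growth arrest), Mdm2 (the ubiquitin ligase of p53), Bbc3, Pmaip1, Bcl2l11 and Hrk (BH3-only death genes), and Bcl2l1 and Mcl1 (survival genes). All 10 were found among the 27179 genes of the files, and all 10 were among the 14185 genes with enough counts to be tested. Each of them also passed the count filter when only the Ctrl libraries were given to it.

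Neurons came from hippocampi of newborn mice and were cultured to DIV17/18 on Transwell membranes. This porous support is meant to let neurites cross while cell bodies stay above. Ctrl cultures received DMSO and MG132 cultures received 10 μM MG132 for 7 h. Somas and neurites were then harvested apart, so 4 groups of 3 libraries were compared: Ctrl somas, MG132 somas, Ctrl neurites and MG132 neurites. The labels give every library the strain C57BL/6, whereas the study's methods name both C57BL/6 and FVB mice as the source of its hippocampal neurons. All 4 groups share the culture and poly(A) capture, and no label states that the 3 replicates of a group are separate cultures, so p-values measure the spread between these libraries.

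The tumour suppressor p53 is a transcription factor that is normally kept scarce because MDM2 attaches ubiquitin to it and the proteasome then degrades it. When p53 persists it activates CDKN1A (p21), which blocks cyclin-dependent kinases, GADD45A, and the BH3-only genes PUMA (Bbc3) and NOXA (Pmaip1), as well as Mdm2 itself, which closes a feedback loop. BH3-only proteins bind and neutralise survival proteins of the BCL2 family, among them BCL-XL (Bcl2l1) and MCL1, and so free BAX and BAK to permeabilise mitochondria. BIM (Bcl2l11) and Harakiri (Hrk) are the BH3-only genes best known from neurons deprived of trophic support.

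The windows just upstream of the annotated start sites of the 3 growth arrest genes and of Mdm2 are shown. They were picked from the genes that rose in both fractions. Those genes also include Bcl2l11, whose windows are not printed, and Pmaip1, which had none. The choice does not show what drove the rise, which was not tested. Each is 250 bases long, read 5′ to 3′ on the gene's strand from RefSeq, build GRCm38.p6, and matches to the consensus half-site of p53 are in capitals.
Cdkn1a (chr17:29090729-29090978, plus strand): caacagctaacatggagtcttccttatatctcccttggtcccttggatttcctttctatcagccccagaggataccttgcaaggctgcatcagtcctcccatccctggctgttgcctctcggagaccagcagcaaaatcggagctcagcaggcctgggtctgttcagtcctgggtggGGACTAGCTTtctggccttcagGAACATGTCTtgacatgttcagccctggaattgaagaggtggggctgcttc
Gadd45a (chr6:67037408-67037657, minus strand): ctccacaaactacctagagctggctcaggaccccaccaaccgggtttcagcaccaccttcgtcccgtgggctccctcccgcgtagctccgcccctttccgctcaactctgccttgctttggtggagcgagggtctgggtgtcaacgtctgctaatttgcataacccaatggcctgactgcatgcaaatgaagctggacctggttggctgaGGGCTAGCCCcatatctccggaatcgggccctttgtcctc
Mdm2 (chr10:117710759-117711008, minus strand): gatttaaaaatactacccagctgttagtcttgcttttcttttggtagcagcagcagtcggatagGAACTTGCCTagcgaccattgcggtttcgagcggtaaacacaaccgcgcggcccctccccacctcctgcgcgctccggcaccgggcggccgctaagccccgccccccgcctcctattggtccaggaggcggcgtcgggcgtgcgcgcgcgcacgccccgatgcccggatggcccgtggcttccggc
Gadd45b (chr10:80929841-80930090, plus strand): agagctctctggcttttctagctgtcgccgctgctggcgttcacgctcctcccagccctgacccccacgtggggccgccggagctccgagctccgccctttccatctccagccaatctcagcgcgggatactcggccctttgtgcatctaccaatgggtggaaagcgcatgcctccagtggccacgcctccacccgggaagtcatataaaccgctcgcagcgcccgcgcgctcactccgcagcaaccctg
The Cdkn1a window held 2 half-sites, GGACTAGCTT and GAACATGTCT, at positions -73 to -64 and -51 to -42 from the start site. Gadd45a held GGGCTAGCCC at -40 to -31, Mdm2 held GAACTTGCCT at -186 to -177, and Gadd45b held none in this window but had a TATAAA box at -46 to -41. RefSeq lists a second start site for Cdkn1a, and its window (chr17:29093519-29093768, not printed) held 0 half-sites.

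Motifs were searched on both strands in 300 bases, from 250 before to 50 after each start site, for the 9 genes with a RefSeq window, which have 15 windows in all, 1 to 3 per gene. Pmaip1 had none in the table. A p53 half-site lay in 3 of the 15 windows (1 each of Cdkn1a, Gadd45a and Mdm2), against 8.36% of all 32851 windows. TGTTTAC, a FOXO motif, lay in 3 of the 15 (1 each of Mdm2, Bbc3 and Bcl2l11), against 3.65% of all windows. TGACG, the half-site of the cyclic AMP element, lay in 4 of the 15 (1 each of Mdm2, Bbc3, Hrk and Mcl1), a share near the 20.8% of all windows. TGANTCA (AP-1), TGACGTCA (the full cyclic AMP element), TGATGCAA (the composite C/EBP-ATF site) and the heat shock element were in 0 of the 15 windows, against 7.81%, 1.79%, 0.895% and 0.603% of all windows. TATAAA lay in 1 of the 15, that of Gadd45b, against 13.6% of all windows. The full cyclic AMP element contains TGACG, so these counts overlap. A match describes letters in the window and does not show binding.

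Library totals ran from 4247610 to 22166347 counts, mitochondrial genes took 9.78% to 29.2% of them, and the most abundant other gene took 12.4% to 33.4%. Counts were therefore expressed as CPM, the reads of a gene scaled to a common library size corrected by TMM factors, which ranged from 0.567 to 1.44. All 9 neuron markers listed were detected in every group and none passed the test between MG132 and Ctrl in either fraction. Their CPM summed to 1420 to 2314 in Ctrl somas and 1057 to 1958 in MG132 somas. In neurites the sums were 1742 to 3881 with Ctrl and 1202 to 2791 with MG132. Markers of other cells were present too. The summed CPM of 8 astrocyte markers was 4743 to 5830 in Ctrl somas, 2492 to 3236 in MG132 somas, 20860 to 25840 in Ctrl neurites and 9665 to 19740 in MG132 neurites, and 5 of the 8 in somas and 4 of the 8 in neurites were lower with MG132. The 9 microglia markers summed to 995.1 CPM or more and at most 1300 CPM in Ctrl somas, 360.1 to 637.2 in MG132 somas, 847.3 to 1482 in Ctrl neurites and 235.6 to 387.7 in MG132 neurites, with 4 of the 9 lower in each fraction. The 11 oligodendrocyte markers summed to 1656 to 7070 CPM in Ctrl somas and 568.5 to 6414 in MG132 somas. In Ctrl neurites they summed to 5337 to 23260 and in MG132 neurites to 3024 to 16720. Of these 11 markers, 3 in somas and 4 in neurites were lower. Astrocyte sums lay above neuron sums in every group, and oligodendrocyte sums did so in the neurites groups, though sums depend on the markers listed. The 6 vascular and fibroblast markers summed to 139.6 to 169.6 CPM in Ctrl somas, 37.02 to 50.82 in MG132 somas, 29.9 to 71.89 in Ctrl neurites and 17.2 to 28.09 in MG132 neurites, with 2 of the 4 tested, Col1a1 and Col1a2, lower in somas and 0 in neurites. The 6 markers of dividing cells summed to 42.43 to 155.7 CPM in Ctrl somas, 11.73 to 62 in MG132 somas, 45.99 to 255.7 in Ctrl neurites and 17.77 to 130.3 in MG132 neurites, and 0 of the 6 passed the test in either fraction. Over all genes tested, 5.58% were called lower with MG132 in somas and 5.44% in neurites. In bulk libraries fewer cells of a type and less RNA per cell cannot be told apart, and the part of these markers in the results that follow was not tested. The results therefore describe the cultures as a whole and cannot be assigned to neurons alone. Markers of glia and of dividing cells were also found in the neurites groups. Whether whole cells lay in that fraction was not tested.

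The first question was how each gene's mRNA differed between MG132 and Ctrl cultures within a fraction. In somas 6 of the 10 genes rose with MG132 (more than 1.7-fold at an adjusted p under 0.01 in edgeR's quasi-likelihood fit, with p-values adjusted by Benjamini-Hochberg over all genes tested), and 0 fell. Of all 14185 genes tested, 9.00% were called higher and 5.58% lower in the same comparison. In neurites the same 6 genes rose and 0 fell, against 9.25% of all genes called higher and 5.44% lower. The 6 were Cdkn1a, Gadd45a, Gadd45b, Mdm2, Pmaip1 and Bcl2l11. The median log2 fold change of the 10 genes was 1.84 in somas and 1.64 in neurites, beside medians over all tested genes of -0.07 and -0.16.

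**Figure D1:**
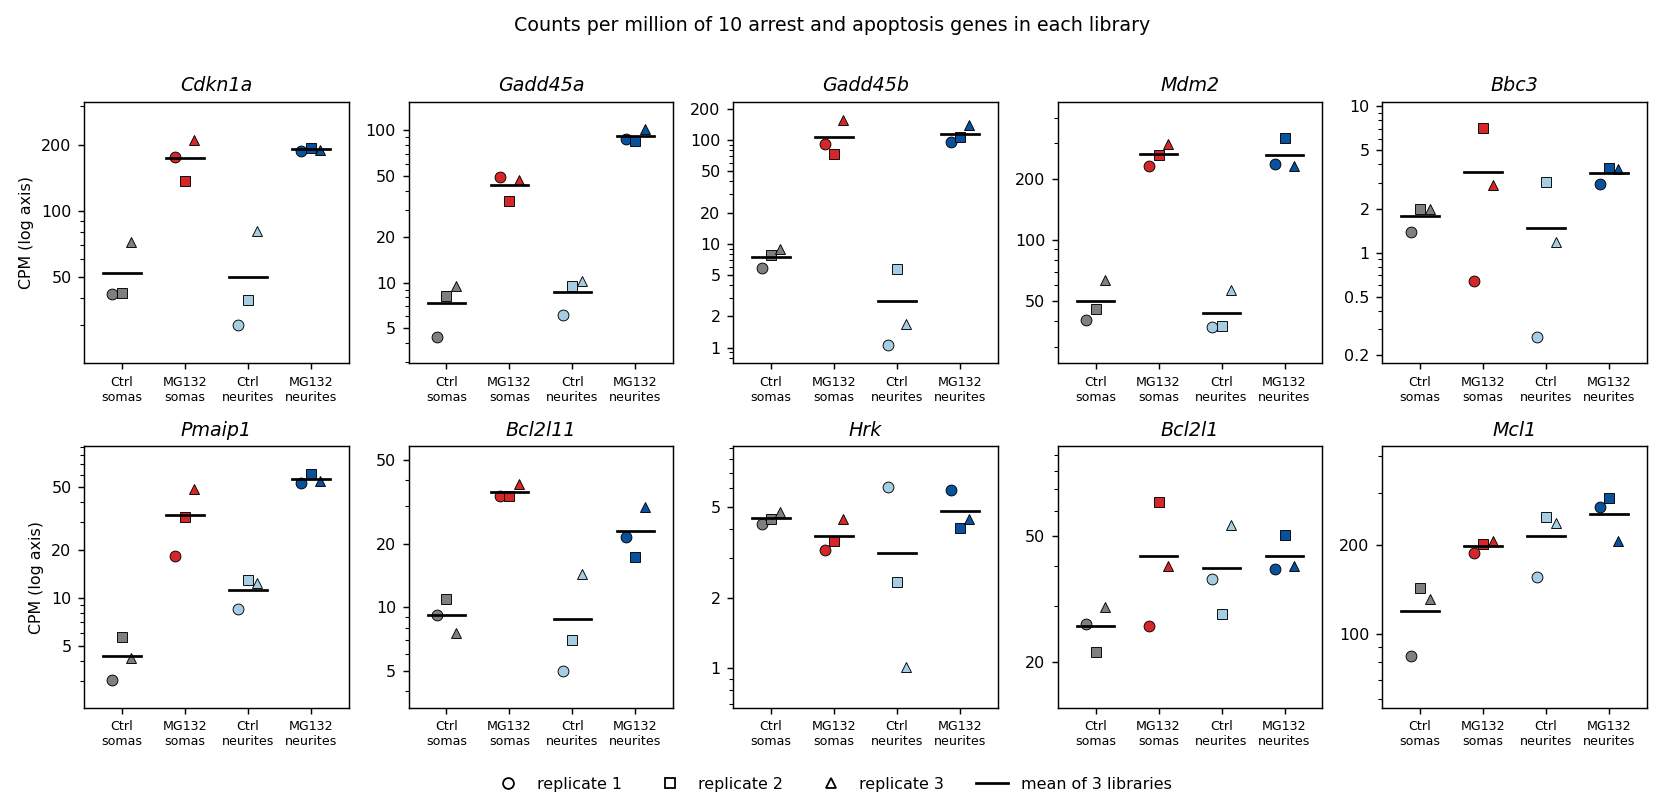
CPM (log axis, a panel per gene) in the 4 groups, with 1 symbol per library, its shape giving the replicate number, and a bar at the mean of 3. For Cdkn1a, Gadd45a, Gadd45b, Mdm2, Pmaip1 and Bcl2l11 every MG132 library lies above every Ctrl library of the same fraction, while for Bbc3, Hrk and Bcl2l1 the symbols overlap in both fractions.

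Cdkn1a, which encodes the cell cycle inhibitor p21, lies on chromosome 17 (GRCm38, chr17:29090979-29100722, plus strand). Its CPM in Ctrl somas was 41.8, 42.3 and 71.9 in replicates 1, 2 and 3, and in MG132 somas 175, 137 and 210.
In Ctrl neurites it was 30.1, 39.0 and 80.5, and in MG132 neurites 188, 194 and 190.
No MG132 value came down to the highest Ctrl value of its fraction, and replicate 3 was the highest of the Ctrl libraries in both fractions. The log2 fold change was 1.74 ± 0.31 (SE) in somas (adjusted p = 0.000908) and 1.93 ± 0.32 in neurites (adjusted p = 0.000415), a rise of 3.35-fold and 3.81-fold with 3 libraries per group. Without Ctrl neurites replicate 3 the log2 fold change in neurites was 2.575 (adjusted p = 2.33e-05). An antisense gene, AC167363.2, overlaps 7.68% of the exon bases of Cdkn1a.

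Gadd45a, a stress sensor gene that is a classic p53 target, lies at chr6:67035096-67037407 on the minus strand. It was found at 4.42, 8.20 and 9.48 CPM in Ctrl somas and at 49.8, 34.5 and 47.4 CPM in MG132 somas. In Ctrl neurites it was found at 6.08, 9.50 and 10.2 CPM and in MG132 neurites at 87.5, 85.9 and 103 CPM. The highest Ctrl value and the lowest MG132 value were thus far apart in both fractions. Gadd45a rose by 2.59 ± 0.28 on the log2 scale in somas (adjusted p = 2.28e-05) and by 3.40 ± 0.30 in neurites (adjusted p = 2.41e-06), or 6.03-fold and 10.5-fold. The antisense gene E230016M11Rik overlaps 19.1% of its exon bases, had 0 to 34 counts per library, and could not be told apart by strand where the 2 overlap.

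Gadd45b, a relative of Gadd45a best known as a gene switched on by neuronal activity and by NF-κB, lies at chr10:80930091-80932204 on the plus strand. Ctrl somas held 5.86, 7.75 and 8.82 CPM and MG132 somas 91.8, 72.9 and 156 CPM. Ctrl neurites held 1.06, 5.70 and 1.68 CPM, from 4, 51 and 10 counts, and MG132 neurites 95.9, 106 and 141 CPM. Its rise was larger in size than that of any other of the 10 genes in each fraction, 3.85 ± 0.41 on the log2 scale in somas (14.4-fold, adjusted p = 1.81e-05) and 5.18 ± 0.46 in neurites (36.3-fold, adjusted p = 2.56e-06). It ranked 55th in somas and 35th in neurites among the log2 fold changes of the 14185 genes. The low Ctrl counts in neurites leave the size of that fold loosely set, and leaving out 1 neurites library at a time gave values from 4.88 to 6.32, the highest without Ctrl neurites replicate 2.

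Mdm2, at chr10:117688875-117710758 on the minus strand, is both a target of p53 and the gene of its main ubiquitin ligase. Its CPM was 40.6, 46.0 and 63.7 in Ctrl somas and 230.9, 262.6 and 297.5 in MG132 somas. In neurites the Ctrl libraries held 37.3, 37.9 and 56.8 CPM and the MG132 libraries 236.8, 318.5 and 230.7 CPM. The values of the fractions lay close together, and MG132 and Ctrl did not overlap in either. Mdm2 rose by 2.40 ± 0.23 in somas (5.27-fold, adjusted p = 7.57e-06) and 2.57 ± 0.23 in neurites (5.96-fold, adjusted p = 3.1e-06), both on the log2 scale.

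The 4 BH3-only genes split evenly. Pmaip1 and Bcl2l11 rose in both fractions, whereas Bbc3 and Hrk did not pass the test in either. Pmaip1, on chromosome 18 (chr18:66458604-66465558, plus strand), encodes NOXA, a protein that binds MCL1. It was at 3.04, 5.65 and 4.19 CPM in Ctrl somas and at 18.5, 32.5 and 48.4 CPM in MG132 somas. In neurites it was at 8.46, 13.0 and 12.4 CPM in Ctrl and at 53.3, 60.2 and 54.4 CPM with MG132. MG132 somas were widely spread, replicate 1 being the lowest, while the 3 MG132 neurites libraries lay close together. The rise was 2.97 ± 0.34 on the log2 scale in somas (7.81-fold, adjusted p = 3.59e-05) and 2.30 ± 0.33 in neurites (4.91-fold, adjusted p = 0.00015).

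Bcl2l11, at chr2:128126038-128162547 on the plus strand, encodes BIM, which can bind every survival protein of the BCL2 family. Ctrl somas held 9.18, 10.97 and 7.60 CPM and MG132 somas 33.4, 33.7 and 38.5 CPM, a rise of 1.93 ± 0.33 on the log2 scale (3.81-fold, adjusted p = 0.000709). Ctrl neurites held 5.02, 7.04 and 14.4 CPM and MG132 neurites 21.4, 17.3 and 30.0 CPM. The neurites groups stood close, the highest Ctrl library being replicate 3 at 14.4 CPM and the lowest MG132 library replicate 2 at 17.3 CPM. Their log2 fold change was 1.35 ± 0.34 (2.55-fold, adjusted p = 0.00856). This call was lost when Ctrl neurites replicate 1 or 2, or MG132 neurites replicate 1 or 3, was left out (log2 1.10, 1.19, 1.40 and 1.24, adjusted p = 0.033, 0.0412, 0.017 and 0.026). It was also lost with total counts in place of TMM factors (1.10, adjusted p = 0.0609). Without Ctrl neurites replicate 3 the rise was 2.01 (adjusted p = 0.000497).

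Bbc3, at chr7:16308398-16318334 on the plus strand, encodes PUMA, a BH3-only protein through which p53 can kill neurons. It was scarce, with 1 to 84 counts per library. Ctrl somas held 1.38, 1.99 and 1.98 CPM and MG132 somas 0.647, 7.13 and 2.91 CPM. In neurites the Ctrl libraries held 0.264, 3.02 and 1.18 CPM and the MG132 libraries 2.96, 3.79 and 3.72 CPM. MG132 somas held both the highest and the second lowest of the 12 values, so the groups overlapped. The log2 fold change was 0.96 in somas (95% interval -0.79 to 2.703, adjusted p = 0.419) and 1.15 in neurites (95% interval -0.64 to 2.93, adjusted p = 0.335). Each interval includes both 0 and the log2 fold change of Cdkn1a in the same fraction.

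Hrk, at chr5:118169764-118189478 on the plus strand, is a BH3-only gene largely restricted to the nervous system. It was at 4.21, 4.43 and 4.74 CPM in Ctrl somas and 3.23, 3.57 and 4.42 CPM in MG132 somas. Ctrl neurites held 6.08, 2.35 and 1.01 CPM and MG132 neurites 5.93, 4.02 and 4.43 CPM. Its log2 fold change was -0.24 in somas (95% interval -1.40 to 0.91, adjusted p = 0.78) and 0.65 in neurites (95% interval -0.57 to 1.86, adjusted p = 0.429). Its groups overlapped in both fractions.

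Neither survival gene passed the test. Mcl1, at chr3:95656944-95663179 on the plus strand, encodes a short-lived survival protein that the proteasome degrades. Ctrl somas held 84.2, 143 and 132 CPM and MG132 somas 188, 202 and 207 CPM, without overlap and higher in 3 of 3 replicate numbers. The log2 fold change in somas was 0.73 ± 0.22 (1.66-fold, adjusted p = 0.0243). In neurites Mcl1 was at 156.5, 250.1 and 237.9 CPM in Ctrl and at 271, 289 and 207 CPM with MG132, overlapping, with a log2 fold change of 0.25 ± 0.22 (adjusted p = 0.44). Bcl2l1, at chr2:152758732-152833803 on the minus strand, encodes BCL-XL, the survival protein on which mature neurons largely depend. It was at 26.4, 21.5 and 29.9 CPM in Ctrl somas and 25.9, 63.8 and 40.2 CPM in MG132 somas. Ctrl neurites held 36.5, 28.3 and 54.1 CPM and MG132 neurites 39.2, 50.1 and 40.3 CPM. The log2 fold changes of Bcl2l1 were 0.73 ± 0.30 in somas (adjusted p = 0.0887) and 0.13 ± 0.30 in neurites (adjusted p = 0.784), and MG132 somas replicate 1 lay within the Ctrl range.

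Counting groups that did not overlap, 7 of the 10 genes were higher with MG132 in somas (the 6 called genes and Mcl1) and 6 in neurites, and 0 were lower. Among all tested genes 23.2% were higher and 22.7% lower without overlap in somas, and 20.4% were higher and 20.4% lower in neurites.

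**Figure D2:**
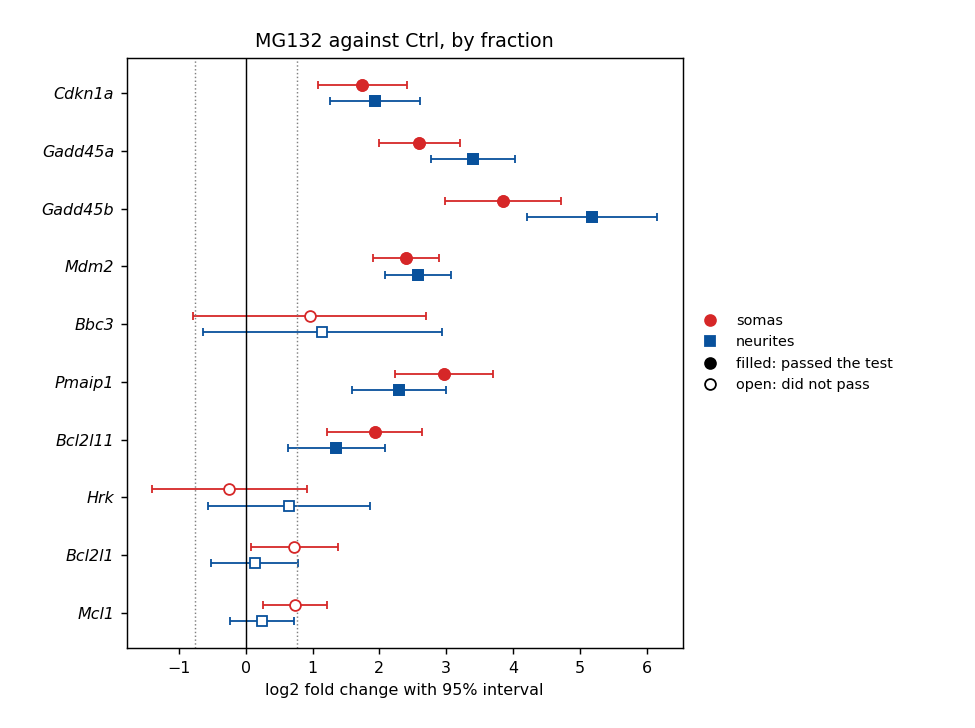
Log2 fold change of MG132 against Ctrl (horizontal axis) with its 95% interval for the 10 genes, in somas (circles) and neurites (squares). Dotted lines mark 1.7-fold in each direction and filled symbols passed the test. The filled symbols run from 1.35 for Bcl2l11 to 5.18 for Gadd45b, both in neurites, and the intervals of Bbc3 and Hrk span 0.

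Levels were compared between genes as CPM per kb of exon. In Ctrl somas Mcl1 stood highest, at 35.0 CPM per kb, and its range (24.6 to 41.7) did not meet that of the next gene, Cdkn1a, at 14.6. Mdm2 followed at 9.86, its range (7.99 to 12.5) overlapping that of Cdkn1a (11.8 to 20.2), then Bcl2l1 at 5.65, Gadd45b at 4.71 and Gadd45a at 4.17, whose neighbouring ranges overlapped. The BH3-only genes took the last 4 places, Pmaip1 at 1.57, Bcl2l11 at 1.15, Bbc3 at 0.841 and Hrk at 0.785. Ranges of Pmaip1 and Bcl2l11 overlapped, as did those of Bbc3 and Hrk.

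With MG132 other genes stood beside Mcl1. In MG132 somas Gadd45b stood at 67.2, Mcl1 at 58.1, Mdm2 at 51.9 and Cdkn1a at 48.9 CPM per kb, each overlapping the next, and Gadd45a followed at 24.9. In MG132 neurites the order was Mcl1 at 74.7, Gadd45b at 72.0, Cdkn1a at 53.6, Gadd45a at 52.2 and Mdm2 at 51.5, with overlap between every 2 neighbours except Gadd45b and Cdkn1a. Pmaip1 was the highest of the BH3-only genes in all 4 groups, at 12.1 in MG132 somas and 20.5 in MG132 neurites. Bbc3 and Hrk were in the last places in all 4 groups, with means from 0.554 to 1.68 CPM per kb. In Ctrl neurites Mcl1 stood at 62.9 and Cdkn1a, next, at 14.0.

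**Figure D3:**
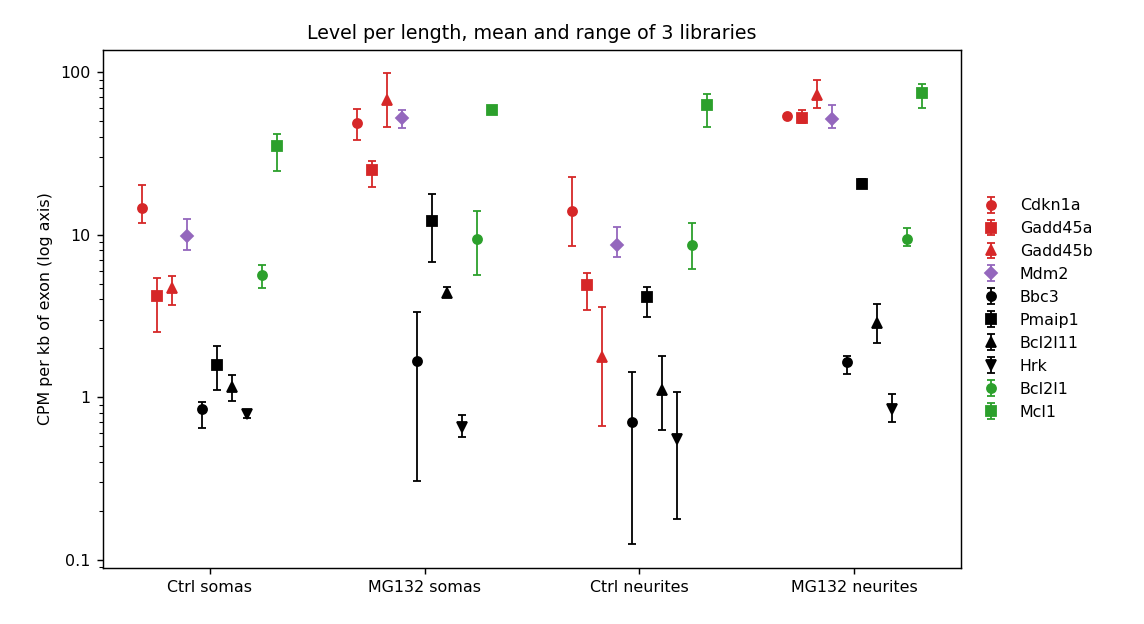
CPM per kb of exon (log axis) of the 10 genes in the 4 groups, as the mean (symbol) and range (bar) of 3 libraries. Growth arrest genes are red, Mdm2 purple, BH3-only genes black and survival genes green. Mcl1 is the highest symbol in Ctrl somas at 35.0 and in Ctrl neurites at 62.9, and Gadd45b, Mdm2 and Cdkn1a lie between 48.9 and 72.0 in both MG132 groups.

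The second question was how the 10 mRNAs were split between neurites and somas. In Ctrl cultures 0 of the 10 passed the test, against 6.15% of all genes called higher and 1.28% called lower in neurites. In MG132 cultures 0 of the 10 passed, against 6.92% and 2.08%. This fit took no account of the replicate number. With the replicate number as a block, Pmaip1 and Mcl1 passed in Ctrl and Gadd45a passed in MG132, as given below. In the fit without a block the medians of the 10 genes were -0.05 in Ctrl and 0.11 in MG132, beside -0.04 and -0.08 over all genes. These ratios depend on the scaling, since total counts in place of TMM factors moved the median of all genes to -0.70 in Ctrl and -0.86 in MG132, and the share of calls that were higher in neurites from 82.8% to 16.1% and from 76.9% to 6.12%.

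Pmaip1 and Mcl1, a BH3-only gene and the survival gene whose product NOXA binds, stood highest in this comparison in Ctrl cultures. The log2 ratio of neurites to somas was 1.42 ± 0.34 for Pmaip1 (2.68-fold, adjusted p = 0.0111) and 0.85 ± 0.22 for Mcl1 (1.80-fold, adjusted p = 0.0185). Both were higher in neurites in 3 of 3 replicate numbers without overlap. With the replicate number as a block the ratios were 1.40 (adjusted p = 0.000508) and 0.85 (adjusted p = 0.000558), and both passed. With total counts they were 0.79 (adjusted p = 0.171) and 0.24 (adjusted p = 0.633). Gadd45b was the 1 gene lower in Ctrl neurites without overlap, at a log2 ratio of -1.24 ± 0.44 (adjusted p = 0.0754). Without overlap, 17.8% of all genes were higher and 15.9% lower in Ctrl neurites.

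In MG132 cultures the ratio of Gadd45a was 1.06 ± 0.26 on the log2 scale (2.09-fold, adjusted p = 0.0111), higher in neurites in 3 of 3 replicate numbers. With the block it was 1.05 (adjusted p = 0.000695) and passed, and with total counts 0.24 (adjusted p = 0.609). Pmaip1 was at 0.75 ± 0.31 (adjusted p = 0.11) and Bcl2l11 at -0.63 ± 0.32 (adjusted p = 0.203), neither with overlap, beside 18.9% of all genes higher and 17.9% lower without overlap. Under total counts the ratio of Pmaip1 was -0.01. Cdkn1a and Mdm2 lay near 0 in both treatments, with ratios of -0.05 and -0.19 in Ctrl and 0.13 and -0.01 in MG132. Under total counts all 4 were negative, from -0.66 to -0.82, so the ratio of Cdkn1a in MG132 changed sign.

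**Figure D4:**
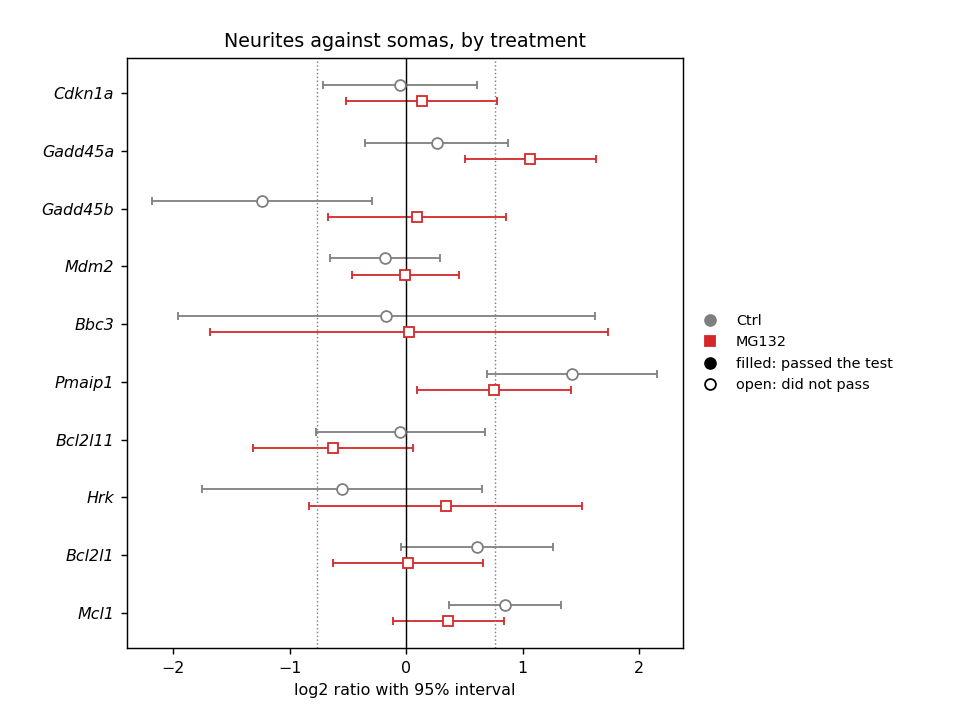
Log2 ratio of neurites to somas (horizontal axis) with its 95% interval for the 10 genes in Ctrl (circles) and MG132 (squares), scaled by TMM factors. Open symbols did not pass the test, which used no replicate block, and dotted lines mark 1.7-fold. Pmaip1 in Ctrl lies furthest right at 1.42 and Gadd45b in Ctrl furthest left at -1.24.

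The third question was whether the response to MG132 differed between neurites and somas. The interaction of treatment and fraction passed the test for 0 of the 10 genes and for 0 of all 14185 genes in edgeR's quasi-likelihood test. At an unadjusted p under 0.05 it held 1000 genes (7.05%), DESeq2 called 21 higher and 8 lower, and the fit with the replicate block 14 higher and 7 lower, 0 of the 10 genes among them in either. The lowest p among the 10 was that of Gadd45b, whose log2 fold change was 1.33 ± 0.57 higher in neurites (95% interval 0.12 to 2.55, unadjusted p = 0.0337, adjusted p = 0.663), in 3 of 3 replicate numbers. Leaving out 1 library at a time gave differences from 1.03 to 2.47, the highest without Ctrl neurites replicate 2 (adjusted p = 0.343). For Gadd45a the difference was 0.80 ± 0.39 (95% interval -0.03 to 1.63, adjusted p = 0.721). For Pmaip1 and Bcl2l11 it was -0.67 ± 0.46 (adjusted p = 0.849) and -0.58 ± 0.47 (adjusted p = 0.885). For Mdm2 the interval ran from -0.48 to 0.84 and for Cdkn1a from -0.74 to 1.11, so differences of up to about 1 on the log2 scale are within the error.

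The rest of the pathway was read from lists of genes that hold none of the 10. The lists were also chosen with earlier results of these data known, so their shares are descriptive. The lists name 130 genes, of which 118 were tested and 6 stand in 2 lists. Of the 118, 27 rose in somas (22.9%), 25 rose in neurites (21.2%) and 24 rose in both, beside 9.00% and 9.25% of all genes tested called higher. There were 5 that fell in each fraction (4.24%), near the 5.58% and 5.44% of all genes called lower, and 2 fell in both. Of the 118, 0 were called in opposite directions. The share of all genes called alike in both fractions is not given here. Counts in both fractions, for these lists and for the 10 genes, are therefore descriptive.

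Among p53 and its regulators 5 of 18 (27.8%) rose in each fraction, beside the 9.00% and 9.25% over all genes, and 0 fell. They were Mdm4, the partner of MDM2 in holding p53 in check, Usp7, a deubiquitinase of MDM2 and p53, Rchy1 and Trim24, ubiquitin ligases of p53, and Sirt1, a deacetylase. Mdm4 rose from 37.0 ± 4.09 to 73.1 ± 9.22 CPM in somas (SD, n = 3, log2 0.99, adjusted p = 0.00237) and from 20.7 ± 5.35 to 74.0 ± 6.93 in neurites (log2 1.83, adjusted p = 2.56e-05). The other 4 rose by 0.95 to 1.20 on the log2 scale in somas and 1.14 to 1.38 in neurites. Trp53 itself was at 11.8 ± 2.67 CPM in Ctrl somas and 23.1 ± 2.96 in MG132 somas (log2 0.96, adjusted p = 0.0159), and at 12.5 ± 0.97 and 18.2 ± 5.48 in neurites (log2 0.56, adjusted p = 0.149). It did not pass in either fraction, although its groups did not overlap.

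Of 27 other known p53 targets, 10 rose and 1 fell in somas, and 9 rose and 2 fell in neurites, with median log2 fold changes of 1.08 and 1.04. The shares that rose were 37.0% and 33.3%, beside 9.00% and 9.25% of all genes, and the shares that fell 3.70% and 7.41%, beside 5.58% and 5.44%. In both fractions 8 rose. Standing on this list does not show that p53 drove a rise. These libraries do not measure p53 protein, and the cause of the rises was not tested. Sesn2, a sestrin that restrains mTORC1 and is also driven by ATF4, rose from 8.57 ± 1.90 to 86.5 ± 15.9 CPM in somas (log2 3.33, adjusted p = 6.66e-07) and from 5.93 ± 1.36 to 63.0 ± 8.95 in neurites (log2 3.43, adjusted p = 7.56e-07). Btg2, an antiproliferative gene, rose by 2.40 and 2.45 on the log2 scale, and Tnfrsf10b, a TRAIL death receptor, by 2.36 and 2.46. Gdf15, a stress cytokine gene, had 0 to 6 counts per library in Ctrl somas and 0 to 3 in Ctrl neurites, and rose to 52.9 ± 7.57 CPM in MG132 somas and 26.2 ± 13.9 CPM in MG132 neurites (adjusted p = 2.66e-06 and 1.53e-05). With so few Ctrl counts its fold is not given. Sesn1, the sestrin best known as a p53 and FOXO target, fell in both fractions, from 38.4 ± 13.9 to 12.3 ± 3.38 CPM in somas (log2 -1.65, adjusted p = 0.000597) and from 34.5 ± 1.60 to 7.35 ± 0.84 in neurites (log2 -2.22, adjusted p = 6.86e-05). Rrm2b, a p53-induced ribonucleotide reductase subunit, fell in neurites by 1.07 on the log2 scale (adjusted p = 0.00194) and was at -0.18 in somas.

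Of 3 other survival genes of the BCL2 family tested, 1 fell in somas (33.3%) and 2 fell in neurites (66.7%). Over all genes 5.58% and 5.44% were called lower, and with 3 genes such a share is coarse. Bcl2, the founding survival gene, fell from 28.8 ± 7.18 to 8.74 ± 2.25 CPM in somas (log2 -1.73, adjusted p = 0.000887) and from 90.2 ± 11.4 to 14.9 ± 6.15 in neurites (log2 -2.57, adjusted p = 3.68e-05). Bcl2a1b, a survival gene of blood cells and microglia, fell in neurites (log2 -2.48, adjusted p = 0.00474) and was at -1.34 in somas (adjusted p = 0.0878). Of the 9 microglia markers 4 fell in each fraction, and their part in the change of Bcl2a1b was not tested. The 3 effectors Bax, Bak1 and Bok did not pass in either fraction, with Bax at 0.86 in somas (adjusted p = 0.0648) and 0.20 in neurites (adjusted p = 0.681).

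Of 7 other BH3-type genes, Bcl2l13 rose in somas (log2 0.87, adjusted p = 0.00656) and Bmf fell there. Each is 14.3% of the list, beside 9.00% of all genes called higher and 5.58% called lower. In neurites 0 passed, with Bcl2l13 at 0.74 (adjusted p = 0.0168). Bmf, a BH3-only gene that responds to loss of attachment, went from 31 to 137 counts per library in Ctrl somas to 2 to 22 in MG132 somas (log2 -3.55, adjusted p = 0.00393), and was at -2.98 in neurites (adjusted p = 0.0167). Of 21 caspase and apoptosome genes 2 rose in both fractions, Diablo, whose product frees caspases from their inhibitors, and Birc6, an inhibitor of apoptosis. They rose by 0.82 each in somas and by 1.16 and 1.05 in neurites on the log2 scale. The 2 of 21 (9.52%) are near the share of all genes called higher in each fraction, and the 1 of 21 that fell in each (4.76%) near the share called lower. Casp12, a caspase of the endoplasmic reticulum, fell in somas (log2 -1.86, adjusted p = 0.000887) and was at -0.60 in neurites (adjusted p = 0.181). Its difference between the fractions did not pass the test (adjusted p = 0.556). Xiap, a direct caspase inhibitor, fell in neurites (log2 -1.08, adjusted p = 0.000398). In somas Xiap was at -0.71 (adjusted p = 0.00746), lower without overlap but short of 1.7-fold, and the difference between the fractions did not pass the test (adjusted p = 0.842). Among 10 death receptor genes Tnfrsf10b was the 1 that rose, a share like that of all genes.

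Of 20 other growth arrest and cell cycle genes 3 rose in both fractions (15% in each, beside 9.00% and 9.25% of all genes) and 0 fell. They were Gadd45g, the third GADD45 gene, Ppp1r15a (GADD34), which restores translation after stress, and Ddit3 (CHOP, also GADD153). Gadd45g rose from 6.62 ± 2.19 to 87.0 ± 3.90 CPM in somas (log2 3.72, adjusted p = 1.27e-06) and from 6.38 ± 1.75 to 78.5 ± 26.5 in neurites (log2 3.61, adjusted p = 1.78e-06), so all 3 members of its family rose in both fractions. Ppp1r15a rose by 3.87 and 3.27 and Ddit3 by 2.36 and 1.74. The median of this list was -0.25 in somas and -0.43 in neurites, so most of its genes did not share in the rise. Of 14 stress transcription factors and kinases 7 rose in both fractions (50% in each, beside 9.00% and 9.25% of all genes). Foxo1 alone fell in somas (7.14% of the list, beside 5.58% of all genes), at log2 -0.99 (adjusted p = 0.00213). In neurites Foxo1 was at -0.78 (adjusted p = 0.0108), and the difference between the fractions did not pass the test (adjusted p = 0.946). Atf3 rose by 4.94 and 4.25, Trib3 by 4.70 and 3.84 and Atf4, the factor at the head of the integrated stress response, by 2.42 and 2.28.

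**Figure D5:**
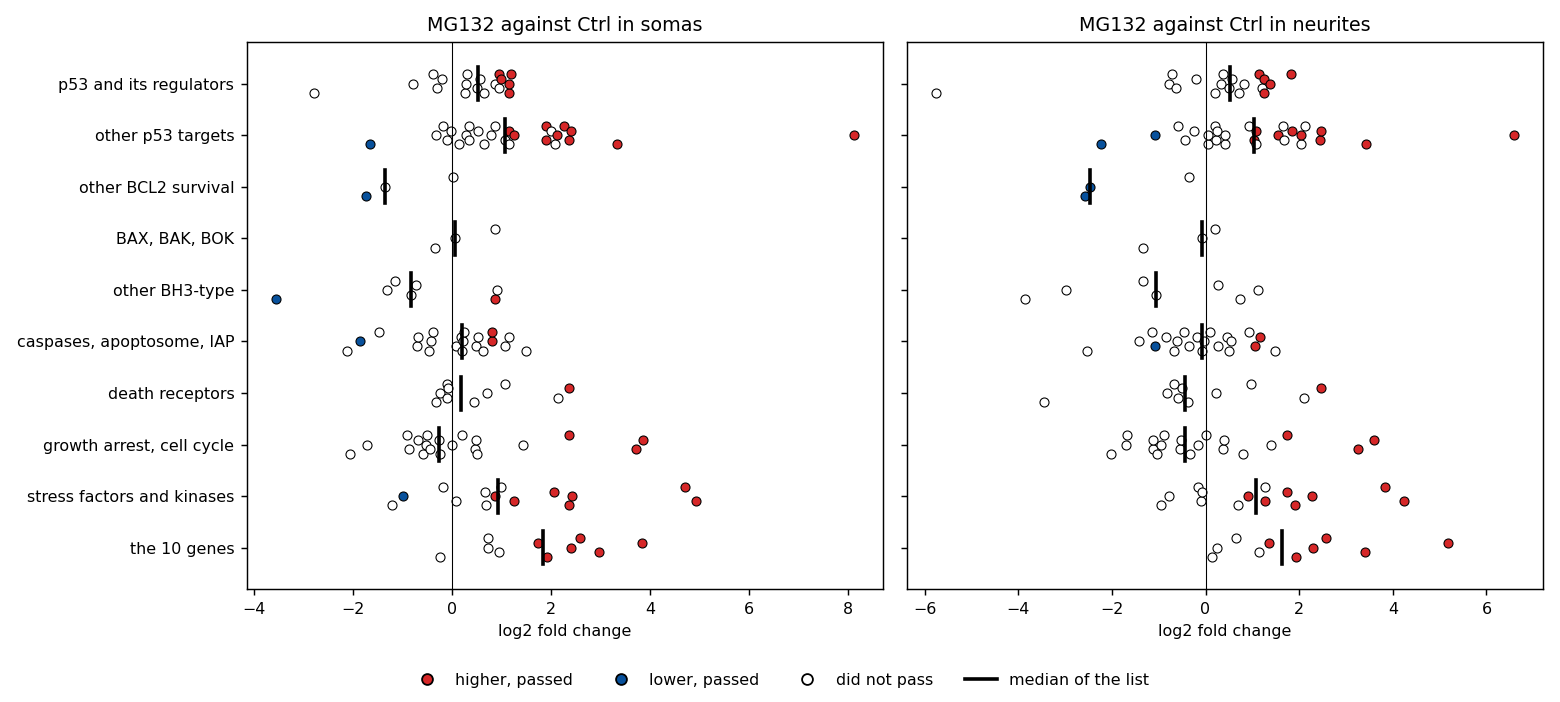
Log2 fold change of MG132 against Ctrl (horizontal axis) in somas (left) and neurites (right) for each tested gene of 9 pathway lists and for the 10 genes (bottom row), with a bar at each list's median. Red symbols passed the test as higher, blue as lower and open symbols did not pass. The 10 genes have medians of 1.84 and 1.64, other p53 targets 1.08 and 1.04, and other BCL2 survival genes -1.34 and -2.48.

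Genes with the profile most like that of Cdkn1a were sought over the 12 libraries among 13619 genes, by the root mean square difference of log2 CPM after centring each gene on its mean. The nearest were Ascc3, Rnf4 and Shmt2, at 0.258, 0.264 and 0.265 log2 units. For Bbc3 the nearest were Wnt2b, Atad2 and 4930483K19Rik, at 0.337, 0.441 and 0.459, further off than any of the 3 nearest to Cdkn1a. Bbc3 had only 1 to 84 counts per library, so its profile is loosely set. The larger distances do not show a profile of its own.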

How the data were processed

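The deposited files hold raw read counts per gene, 1 file per library. The authors trimmed reads with Trimmomatic 0.38.0, aligned them with STAR to mm10 and counted them per Entrez gene with featureCounts 2.0.1, without a strand setting. Identifiers were paired with symbols for 25275 of 27179 genes. The tests ran on edgeR 4.0.16 under R 4.3.3 (filterByExpr by group, TMM factors, quasi-likelihood fit of 4 group means to 12 libraries, Benjamini-Hochberg adjustment over 14185 genes). A gene was called at an adjusted p under 0.01 and a change over 1.7-fold. SE was taken from the size of the log2 fold change and the root of its F value, and 95% intervals use the fit's degrees of freedom. CPM per kb used GENCODE M21 exon unions. The script was tested on simulated counts drawn independently for each library. That test did not cover the shared deviation of same-numbered libraries described below. Totals per library ran from 4247610 to 22166347 counts, and 0 of 66 library pairs were identical.

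Same-numbered libraries deviated together from their group means (r from 0.165 to 0.248 over the 4 comparisons, over 0.1 in every pair, and their file names share a date for all but 1 library), so a fit with the replicate number as a block was an alternative, beside other scalings, count filters, thresholds, DESeq2 1.42.0 and leaving out each library. The genes named are the 10, Trp53, Mdm4 and Bax, the 3 genes nearest in profile to Cdkn1a and to Bbc3, and, from each pathway list, in each MG132 comparison, up to 3 called genes per direction with the largest change and a mean of at least 1 CPM. The 10 genes and all lists were chosen with earlier results of these data known. Promoter sequences are RefSeq's, on GRCm38.p6.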

Additional observations from a re-analysis of the deposited data

How the results depend on the processing

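Every change in the 10 genes called with MG132 kept its direction under every alternative that tested it. In somas 6 genes were called under each alternative except a filter of 10 counts in each library, which left Gadd45b, Bbc3 and Hrk untested and gave 5. In neurites 6 were called, or 5 where Bcl2l11 was lost, or 4 under that filter, and leaving out 1 library at a time gave 5 to 6. Bcl2l11 in neurites was lost under 9 alternatives, 4 of them with 1 library left out, and otherwise with total counts (log2 1.10, adjusted p = 0.0609), the 10-count filter (1.25, 0.0108), a fit of the 2 groups alone (1.40, 0.0292), a log2 limit of 1.7 (1.35), and, chosen after seeing the data, without replicate 1 of both neurites groups (1.14, 0.0484). For neurites against somas in Ctrl, 2 genes were higher with DESeq2, with the replicate block and at an adjusted p under 0.05 (Pmaip1 and Mcl1 each time), and 1 higher and 1 lower with no count filter (Pmaip1 and Gadd45b). One was lower with total counts (Gadd45b, -1.85), and 1 higher without replicate 1 of both neurites groups (Mcl1). Leaving out 1 library gave 0 to 2 higher and 0 to 1 lower, the 2 being Pmaip1 and Mcl1 without Ctrl neurites replicate 1 and the 1 lower Gadd45b (-2.38) without Ctrl neurites replicate 2. In MG132, 1 gene, Gadd45a, was higher with DESeq2, with no count filter, in a fit of the 2 groups alone, with the replicate block and at an adjusted p under 0.05, and 1, Bcl2l11, was lower with total counts (-1.49). The replicate block changed no other call among the 10 genes. Where the cause of such a change is not given by the setting itself, the cause was not tested. Over all genes, total counts called 492 higher and 417 lower in somas and 482 and 538 in neurites, a log2 limit of 1.7 left 299 and 345, and 346 and 311, and the replicate block raised the genes lower with MG132 to 1384 and 1383.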
